A study of Mus musculus with 7 samples.

Results

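The programme of mast cells and basophils was followed through 8 genes in lineage-negative, Sca-1-positive, c-Kit-positive (LSK) bone marrow cells, in which stem cells and early progenitors of blood are concentrated. The genes were Fcer1a, Ms4a2, Fcer1g, Gzmb, Cpa3, Mcpt8, Cma1 and Hdc, chosen by name, and each was matched to the array row whose single platform symbol is that name. All 8 of the 8 had exactly 1 such row, out of 14860 genes with a single-symbol row and 23332 rows in all. The arrays came from 3 adult FVB mice labelled TRAF6 transgenic (03, 04 and 05) and from 4 wild-type littermates (21, 22, 23 and 24), none of which had been treated. All mice shared the strain and the sort. The sources used here do not name the promoter of the transgene or the founder line. RNA was amplified and hybridised to 1 mouse exon array per mouse, and every value below is a log2 signal that the authors summarised with RMA, which corrects background and normalises across arrays.

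Mast cells and basophils carry a receptor that binds IgE, and crosslinking of that receptor by antigen releases stored granules. The receptor joins an alpha chain that binds IgE, a beta chain that amplifies the signal and a gamma chain that carries the signalling motif and serves many other Fc receptors. The granules hold proteases and histamine bound to serglycin. In bone marrow both cell types arise from progenitors that depend on GATA factors.

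The labels were checked first. Traf6 had a signal of 7.52 to 8.14 on the arrays labelled transgenic, against 7.95 to 8.33 on the wild-type arrays, so it was not higher in the labelled transgenic group and does not check the label. The Y-linked gene Eif2s3y was at 2.91 to 3.05 on the 3 labelled transgenic arrays, against 8.05 to 8.64 on the 4 wild-type arrays. Kdm5d, also Y-linked, was at 3.87 to 4.35 on the labelled transgenic arrays, against 6.41 to 6.95 on the wild-type arrays. Genotype label and Y-linked signal, and with it sex, which the labels do not give, therefore cannot be told apart in any difference below. Labelled transgenic 05 stood apart, with the lowest mean correlation with the other arrays (0.966) and an array weight of 0.284. Of the 11 measured genes expected in LSK cells, among them Kit, Cd34 and Flt3, 11 lay above the 40th percentile of mean signal over all rows. In that list 9 of the 11 were lower in labelled transgenic cells, and 3 were called at limma unadjusted p under 0.05, against 10.3% of all rows. These were Flt3 (-0.67), Hlf (-0.57) and Cd48 (0.55), and the part of LSK make-up in the results below was not tested. Of the 6 measured lineage genes that the sort should remove, 3 lay above the 40th percentile of mean signal (Cd3e, Cd5 and Itgam). No detection call was used, so a low signal may be background.

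None of the 8 genes passed the threshold of limma adjusted p under 0.05 over all rows, which 5 rows passed (0.0214%). Eif2s3y and Kdm5d, both Y-linked, were among these 5 rows. Of the 8 genes, those with the widest separation went in opposite directions. Gzmb and Ms4a2 were higher in labelled transgenic cells and Fcer1g was lower, each with groups that did not overlap. Fcer1a was higher with overlap, and Cpa3, Mcpt8, Cma1 and Hdc also overlapped. At unadjusted p under 0.05, 3 of the 8 genes were called, 2 higher and 1 lower, against 10.3% of all rows (5.22% higher and 5.05% lower). The groups did not overlap for 3 of the 8 genes, 2 higher and 1 lower, against 10.4% of all rows (5.17% higher and 5.18% lower). The median difference over the 8 genes, labelled transgenic minus wild type, was 0.12 on the log2 scale, with 6 higher and 2 lower, and over all rows it was -0.00176. In bulk RNA, fewer cells of a type and less RNA per cell cannot be told apart. P-values here reflect the spread between these mice.

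**Figure D1:**
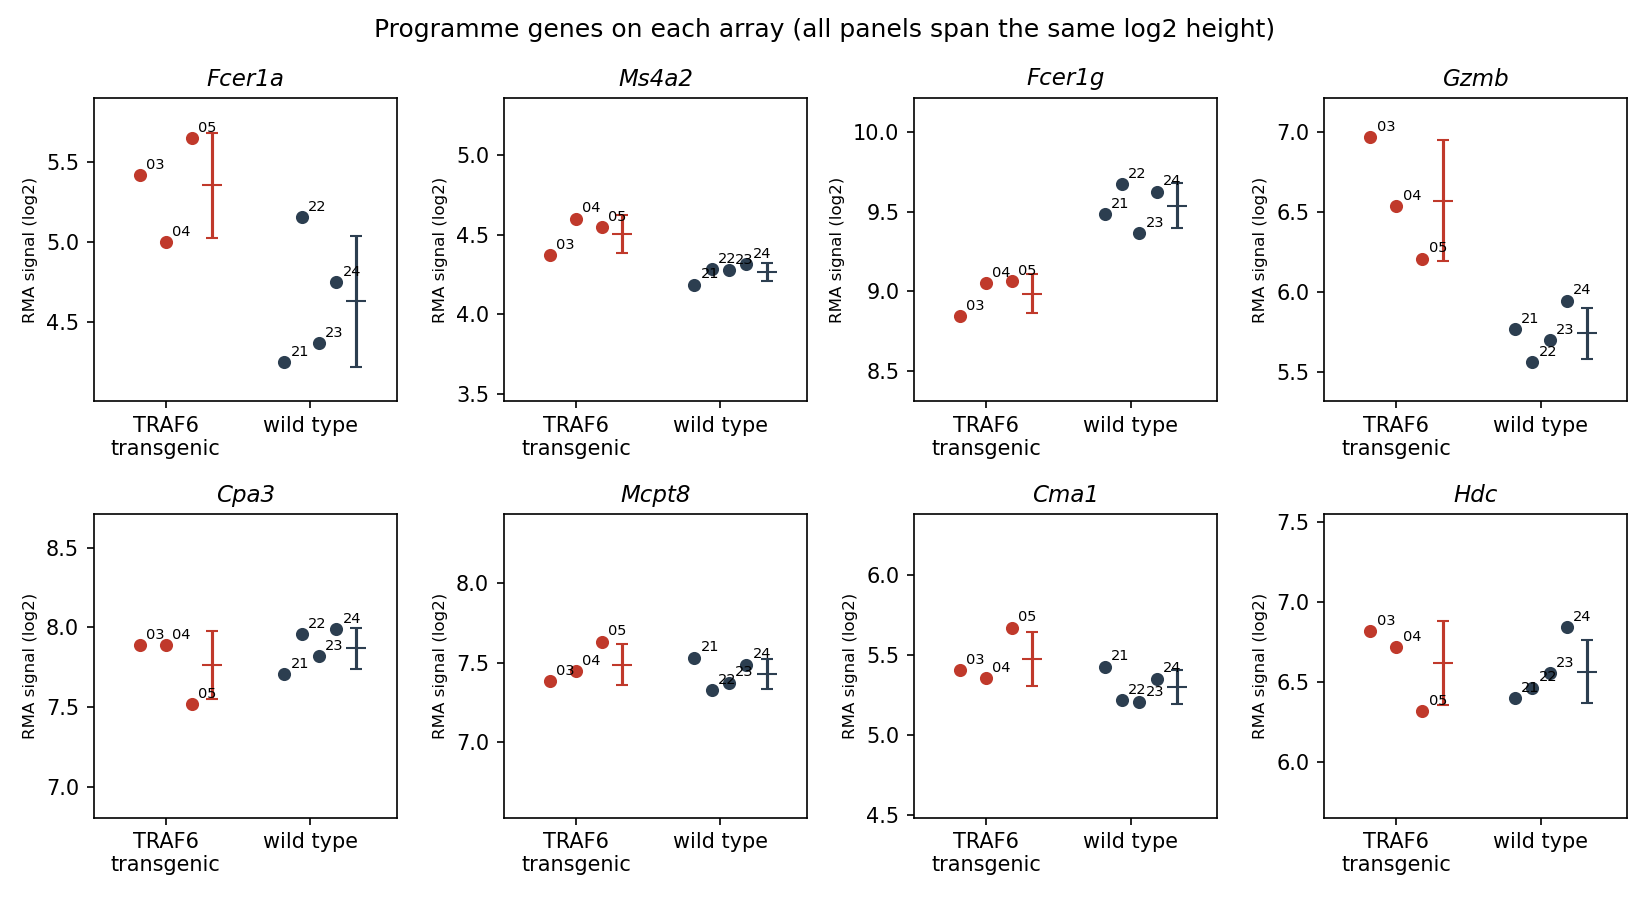
RMA signal (log2, vertical axis) of each of the 8 genes on every array, with mouse numbers beside the points and the mean and SD of each group as a bar. The 3 labelled transgenic arrays (left) lie above all 4 wild-type arrays (right) for Gzmb and Ms4a2 and below them for Fcer1g, and the groups overlap for the other 5 genes.

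The 3 chains of the IgE receptor differed in sign. Fcer1a, the IgE-binding alpha chain, had a log2 signal of 5.42, 5.00 and 5.65 on labelled transgenic arrays 03, 04 and 05, against 4.25, 5.16, 4.37 and 4.75 on wild-type arrays 21, 22, 23 and 24. The groups overlapped, because wild type 22 lay above labelled transgenic 04. Fcer1a was higher by 0.73 (SE 0.25; 95% interval 0.14 to 1.32; limma adjusted p = 0.413), a fold of 1.65. It also varied most within wild type, where its values spanned 0.91. Its mean signal lay below the 40th percentile of all rows, as did those of Ms4a2 and Cma1, so these 3 did not pass the low-signal filter and the other 5 did.

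Ms4a2, the beta chain, had a log2 signal of 4.37, 4.60 and 4.54 on labelled transgenic arrays 03, 04 and 05, against 4.19, 4.28, 4.28 and 4.32 on wild-type arrays 21, 22, 23 and 24. All 3 labelled transgenic values were above all 4 wild-type values, by a gap of 0.0548 between the nearest pair. The difference was 0.24 (SE 0.10; 95% interval -0.00067 to 0.48; limma adjusted p = 0.488). The gap between the groups was narrower than the range of values within either group.

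Fcer1g, the gamma chain, went the other way. Its log2 signal was 8.85, 9.05 and 9.06 on labelled transgenic arrays 03, 04 and 05, against 9.49, 9.67, 9.37 and 9.62 on wild-type arrays 21, 22, 23 and 24. No labelled transgenic array reached the lowest wild-type array, and the gap between them was 0.30. The difference was -0.55 (SE 0.12; 95% interval -0.83 to -0.27; limma adjusted p = 0.289), a 1.47-fold lower signal. Within each array, the log2 signal of Fcer1a minus that of Fcer1g ran from -4.05 to -3.41 in labelled transgenic cells, against -5.24 to -4.52 in wild type. For Ms4a2 minus Fcer1g it ran from -4.52 to -4.45 in labelled transgenic cells, against -5.39 to -5.09 in wild type. Neither of these ranges overlapped between the groups, which follows from the single chains. Ms4a2 and Fcer1g each separated the groups, in opposite directions. Fcer1a overlapped by less than the gap of Fcer1g, so its pair had to separate too. For Fcer1a minus Ms4a2 the range was 0.40 to 1.11 in labelled transgenic cells, against 0.06 to 0.87 in wild type, with overlap. These pairs were formed after the values were seen, so they are given without a test.

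The 150 bases before the annotated start of each receptor gene are shown because the alpha and beta chains, which were higher, and the gamma chain, which was lower, can be compared there. They are RefSeq sequences of build GRCm38.p6, read along the gene's own strand. Capitals mark the letters searched on both strands: AGATAA and TGATAA, bound by GATA factors, TGTGGT, bound by RUNX factors, and TGANTCA, bound by AP-1.
Fcer1a, chr1:173227230-173227379, minus strand: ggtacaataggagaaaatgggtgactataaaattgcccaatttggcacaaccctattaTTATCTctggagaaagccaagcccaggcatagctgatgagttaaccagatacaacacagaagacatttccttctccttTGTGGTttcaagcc
Ms4a2, chr19:11623720-11623869, minus strand: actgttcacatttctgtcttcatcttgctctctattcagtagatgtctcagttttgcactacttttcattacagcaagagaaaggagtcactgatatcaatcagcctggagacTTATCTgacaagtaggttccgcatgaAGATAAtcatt
Fcer1g, chr1:171234350-171234499, minus strand: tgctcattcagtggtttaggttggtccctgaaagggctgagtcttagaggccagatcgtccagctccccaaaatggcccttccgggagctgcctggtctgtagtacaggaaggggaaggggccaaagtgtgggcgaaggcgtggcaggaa
AGATAA occurred once in the window of Fcer1a and at 2 places in that of Ms4a2, and in neither direction in that of Fcer1g. Among 32851 annotated promoters, 5.65% held AGATAA in a window of this length, and 3 of the 8 genes did (Cpa3, Ms4a2 and Fcer1a). TGATAA was in 0 of the 8 windows and in 4.45% of all promoters. Also searched, and not capitalised, were GAGGAA, bound by PU.1, in 1 of the 8 and 14.5% of all, and the E-box CANNTG, in 3 of the 8 and 47.7% of all. The motifs were chosen after the values were known, and a match is a run of letters, not a measured binding site.

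The granule proteases were split. Gzmb encodes granzyme B, a serine protease of cytotoxic lymphocytes that mouse mast cells can also express. Its log2 signal was 6.97, 6.54 and 6.21 on labelled transgenic arrays 03, 04 and 05, against 5.76, 5.56, 5.70 and 5.94 on wild-type arrays 21, 22, 23 and 24. Each labelled transgenic array was above each wild-type array, with a gap of 0.26, and labelled transgenic 05 was the nearest to wild type. The difference was 0.83 (SE 0.19; 95% interval 0.39 to 1.27; limma adjusted p = 0.306), a fold of 1.78 and the widest difference of the 8 genes. It was 0.63 without labelled transgenic 03 and 1.01 without labelled transgenic 05, and the adjusted p over all 15 other settings ran from 0.0874 to 0.629.

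Cpa3 encodes carboxypeptidase A3, a metalloprotease stored in mast cell and basophil granules and transcribed early in that lineage. It had a log2 signal of 7.89, 7.89 and 7.52 on labelled transgenic arrays 03, 04 and 05, against 7.71, 7.96, 7.82 and 7.99 on wild-type arrays 21, 22, 23 and 24. Only labelled transgenic 05 lay outside the wild-type range. The difference was -0.10 (SE 0.14; 95% interval -0.42 to 0.22; limma adjusted p = 0.836), and without labelled transgenic 05 it was 0.0218. This interval does not reach the difference measured for Gzmb.

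Mcpt8, a serine protease that in mice marks basophils, had a log2 signal of 7.38, 7.45 and 7.63 on labelled transgenic arrays 03, 04 and 05, against 7.53, 7.33, 7.37 and 7.49 on wild-type arrays 21, 22, 23 and 24. The difference was 0.06 (SE 0.11; 95% interval -0.20 to 0.32; limma adjusted p = 0.896). Cma1, the chymase of connective tissue mast cells, had a log2 signal of 5.41, 5.35 and 5.67 on labelled transgenic arrays 03, 04 and 05, against 5.43, 5.22, 5.20 and 5.35 on wild-type arrays 21, 22, 23 and 24. The difference was 0.18 (SE 0.12; 95% interval -0.11 to 0.46; limma adjusted p = 0.658). For both genes labelled transgenic 05 had the highest value of the 7 arrays, and the groups overlapped.

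Hdc, histidine decarboxylase, makes histamine. Its log2 signal was 6.82, 6.72 and 6.32 on labelled transgenic arrays 03, 04 and 05, against 6.40, 6.46, 6.55 and 6.84 on wild-type arrays 21, 22, 23 and 24. Both the lowest and the second highest value were labelled transgenic. The difference was 0.05 (SE 0.17; 95% interval -0.33 to 0.44; limma adjusted p = 0.939).

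**Figure D2:**
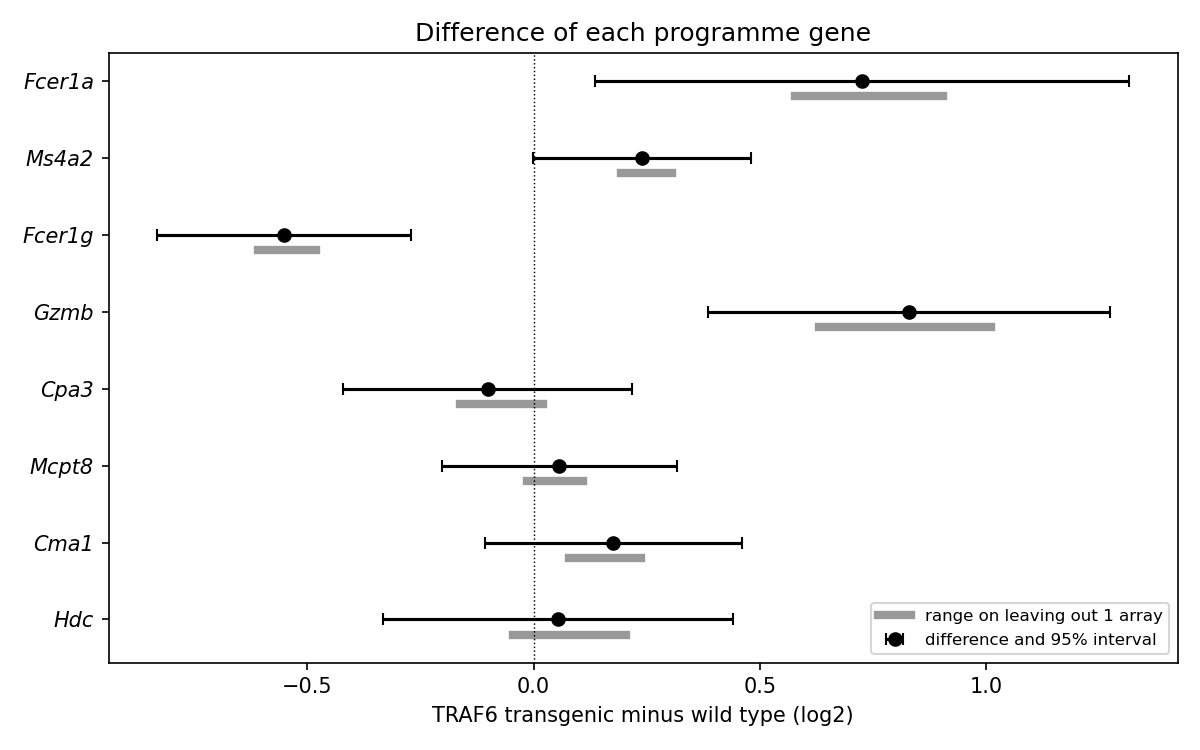
Difference of each gene, labelled transgenic minus wild type, on the log2 scale (horizontal axis), with its 95% interval from limma (black) and the range of differences on leaving out 1 array at a time (grey). The intervals of Gzmb (0.39 to 1.27), Fcer1a (0.14 to 1.32) and Fcer1g (-0.83 to -0.27) lie to 1 side of 0 before adjustment, and none of the 8 genes passes after it.

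Gzmb, Mcpt8 and Cma1 lie in 1 cluster of serine protease genes on mouse chromosome 14, with Cma1 at one end, Gzmb at the other and Mcpt8 beside Ctsg between them. RefSeq lists 15 protein-coding genes from Cma1 to Gzmb, and 8 of them had a single-symbol row. All 8 were higher in labelled transgenic cells, against 49.7% of all rows, with a median difference of 0.19. Of the 8, 5 lay below the 40th percentile of mean signal. Labelled transgenic 05 had the highest value of all arrays for Cma1, Mcpt1, Mcpt2, Mcpt8, Gzmd and Gzmn. Gzmd was at 3.74 there, against 2.89 and 2.88 on labelled transgenic 03 and 04. Without labelled transgenic 05 the difference of Mcpt8 turned to -0.0145. At unadjusted p under 0.05, 2 of the 8 were called, both higher, against 5.22% of all rows. These were Gzmb and Ctsg, the gene of the neutrophil granule protease cathepsin G. Ctsg had a log2 signal of 10.07, 10.13 and 9.92 on labelled transgenic arrays 03, 04 and 05, against 9.31, 9.28, 9.07 and 9.47 on wild-type arrays 21, 22, 23 and 24, a difference of 0.76 (SE 0.13; limma adjusted p = 0.279). Mcpt8, its neighbour, did not separate. Gzmd and Gzmn differed by 0.46 and 0.15 at signals below the 40th percentile, as did Mcpt2 (0.20) and Mcpt1 (0.10). Outside the cluster, Sdr39u1 and Khnyn beyond Cma1 differed by -0.35 and -0.21, and Atp12a beyond Gzmb by 0.02. Genes of this cluster are similar in sequence, and whether a probe reads more than 1 of them was not tested.

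**Figure D3:**
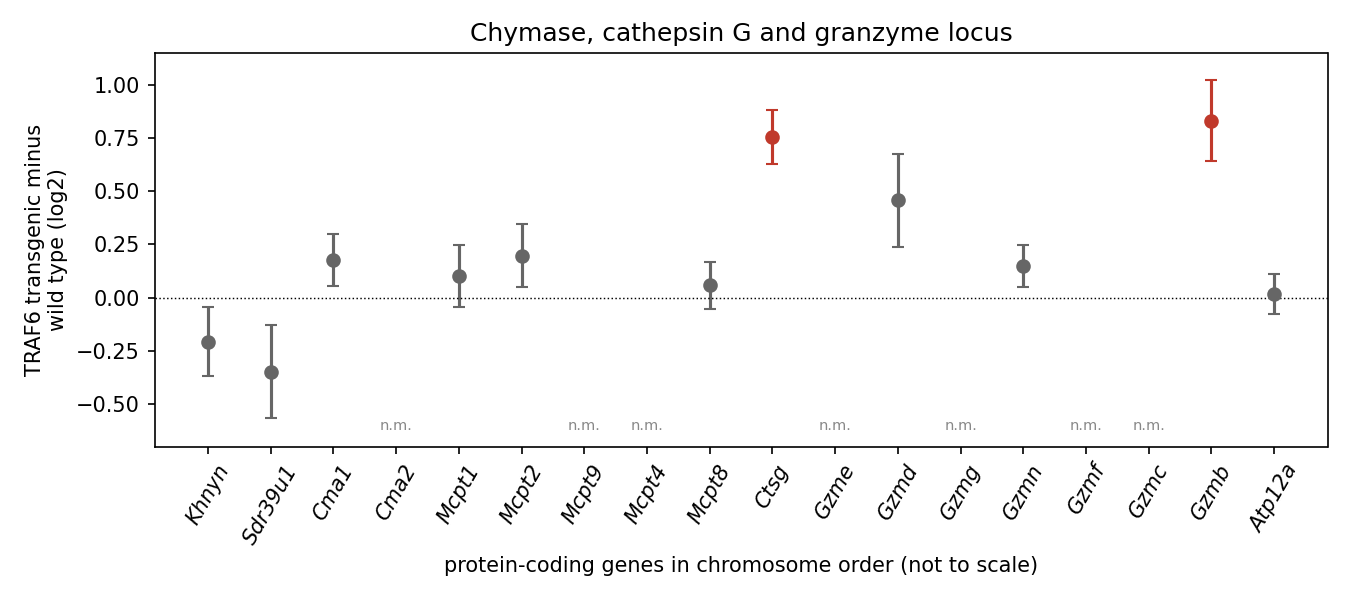
Difference in log2 signal, labelled transgenic minus wild type (points, with SE bars), for the protein-coding genes of the protease cluster and its neighbours in chromosome order, where n.m. marks genes with no single-symbol row. Gzmb (0.83) and Ctsg (0.76), in red, had an unadjusted limma p under 0.05, and Mcpt8, beside Ctsg, was at 0.06.

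The promoter windows of Gzmb and Cpa3 are shown as those of the protease that separated the groups and of one that did not.
Gzmb, chr14:56262335-56262484, minus strand: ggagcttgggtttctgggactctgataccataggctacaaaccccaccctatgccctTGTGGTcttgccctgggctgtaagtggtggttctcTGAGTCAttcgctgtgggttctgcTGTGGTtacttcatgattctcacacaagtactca
Cpa3, chr3:20242182-20242331, minus strand: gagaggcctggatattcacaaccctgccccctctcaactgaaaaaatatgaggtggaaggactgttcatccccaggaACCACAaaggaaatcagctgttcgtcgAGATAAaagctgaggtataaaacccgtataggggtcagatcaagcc
The Gzmb window held TGTGGT at 2 places and TGANTCA at 1, and no AGATAA or TGATAA. The Cpa3 window held TGTGGT and AGATAA at 1 place each. TGTGGT occurred in 8.4% of promoter windows and TGANTCA in 4.24%, and 4 of the 8 genes held TGTGGT (Gzmb, Cpa3, Fcer1a and Mcpt8). Fcer1a and Cpa3 differed by 0.73 and -0.10, and the windows of both held AGATAA and TGTGGT. Whether these letters bear on the signal of any of the genes was not tested.

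Granule genes beyond the 8 gave no common direction. Of 11 listed proteases and proteoglycan genes of mast cells and basophils, 7 were measured, and 4 of these lay below the 40th percentile of mean signal. Of the 7, 5 were higher and 2 lower. In limma 1 was called at unadjusted p under 0.05, against 10.3% of all rows. That gene was Prss34, a tryptase-like protease that in mice marks basophils. Its log2 signal was 6.90, 6.63 and 6.52 on labelled transgenic arrays 03, 04 and 05, against 7.40, 6.93, 7.15 and 6.83 on wild-type arrays 21, 22, 23 and 24. The difference was -0.39 (SE 0.17; limma adjusted p = 0.482), with labelled transgenic 03 above wild type 24. Prss34 and Mcpt8, both basophil proteases, thus differed by -0.39 and 0.06. Srgn, the serglycin core protein that packs granule proteases, differed by -0.19 (SE 0.11; limma adjusted p = 0.588).

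Of 18 measured genes for amines, eicosanoids and cytokines, 8 lay below the 40th percentile of mean signal. Among the 18, 10 were higher and 8 lower, with a median of 0.03. At unadjusted p under 0.05 in limma 2 were called, both lower, against 5.05% of all rows lower. Ccl3, a chemokine that activated mast cells secrete, had a log2 signal of 9.84, 9.36 and 9.09 on labelled transgenic arrays 03, 04 and 05, against 10.45, 10.27, 10.24 and 10.95 on wild-type arrays 21, 22, 23 and 24. The groups did not overlap, and the difference was -1.05 (SE 0.24; limma adjusted p = 0.298). Tnf, an inflammatory cytokine, differed by -0.55 (SE 0.23; limma adjusted p = 0.470) and Hpgds, which makes prostaglandin D, by -0.43 (SE 0.21; limma adjusted p = 0.530). Both overlapped between the groups. Ccl3 and Tnf are made by many other blood cells.

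Signalling genes below the IgE receptor were balanced, with 8 of 19 measured genes higher, 11 lower and a median of -0.02. Lat, the membrane adaptor that Syk phosphorylates, differed by -0.45 (SE 0.14; limma adjusted p = 0.386). Inpp5b, an inositol phosphatase, differed by 0.45 (SE 0.15; limma adjusted p = 0.400), and whether it acts below this receptor was not tested. Inpp5d, also an inositol phosphatase on the list, differed by -0.22 with overlap (limma adjusted p = 0.654). The groups did not overlap for Inpp5b and Lat, 1 higher and 1 lower of the 19, against 5.17% and 5.18% of all rows. Ptpn6, the phosphatase SHP-1, differed by 0.30 (SE 0.14; limma adjusted p = 0.519). Of 13 measured surface receptors of the lineage, 0 were called at unadjusted p under 0.05 in limma, against 10.3% of all rows. Of the 13, 8 lay below the 40th percentile of mean signal. The groups did not overlap for 2 of the 13, Itgb7 and Hrh4, both lower, against 5.18% of all rows lower. Itgb7, an integrin of mast cell progenitors, differed by -0.24 (SE 0.11; limma adjusted p = 0.507), and Csf2rb, the common receptor chain for interleukin-3, by 0.25 (SE 0.16; limma adjusted p = 0.636). Kit, which the sort selected on, differed by -0.05.

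Of 18 measured transcription factors of the lineage, 10 were higher and 8 lower. At unadjusted p under 0.05 in limma 1 was higher and 2 lower, against 5.22% and 5.05% of all rows. Gata1, which drives erythroid, megakaryocytic, mast cell and eosinophil genes, had a log2 signal of 7.85, 8.04 and 8.10 on labelled transgenic arrays 03, 04 and 05, against 7.50, 7.33, 7.41 and 7.31 on wild-type arrays 21, 22, 23 and 24. The difference was 0.61 (SE 0.11; limma adjusted p = 0.279). Spi1, which encodes the myeloid and lymphoid factor PU.1, differed by -0.36 (SE 0.13; limma adjusted p = 0.417), and Bhlhe40, a basic helix-loop-helix repressor, by -1.23 (SE 0.22; limma adjusted p = 0.279). All 3 separated the groups, as did Lyl1 (0.32) and Cebpa (0.09). The groups thus did not overlap for 3 of the 18 higher and 2 lower, against 5.17% and 5.18% of all rows. Gata2 and Mitf, factors that mast cell progenitors depend on, differed by 0.12 and 0.10, and neither was called.

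The relatives of the receptor chains differed in direction from each other. A list of Fc receptors, Fc receptor-like genes, lectin receptors and adaptors, not all of them partners of the gamma chain, had 14 measured genes. Of these, 10 were lower and 4 higher, with a median of -0.14. Of the 14, 9 lay below the 40th percentile of mean signal, Fcrl1 and Fcer2a among them. Fcrl1 and Fcer2a, both genes of B cells, differed by -0.45 (SE 0.13; limma adjusted p = 0.367) and -0.35 (SE 0.13; limma adjusted p = 0.437), and Tyrobp, an adaptor with the same kind of signalling motif as Fcer1g, by -0.25 (SE 0.14; limma adjusted p = 0.571). Of 8 measured Ms4a genes other than Ms4a2, 7 were higher, against 49.7% of all rows, with a median of 0.31. Of the 8, 5 lay below the 40th percentile of mean signal, and the 3 named next lay above it. Ms4a6c differed by 0.62 (SE 0.16; limma adjusted p = 0.342), Ms4a6b by 0.57 (SE 0.23; limma adjusted p = 0.455) and Ms4a3, a gene of granulocyte and monocyte progenitors, by 0.41 (SE 0.20; limma adjusted p = 0.532).

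**Figure D4:**
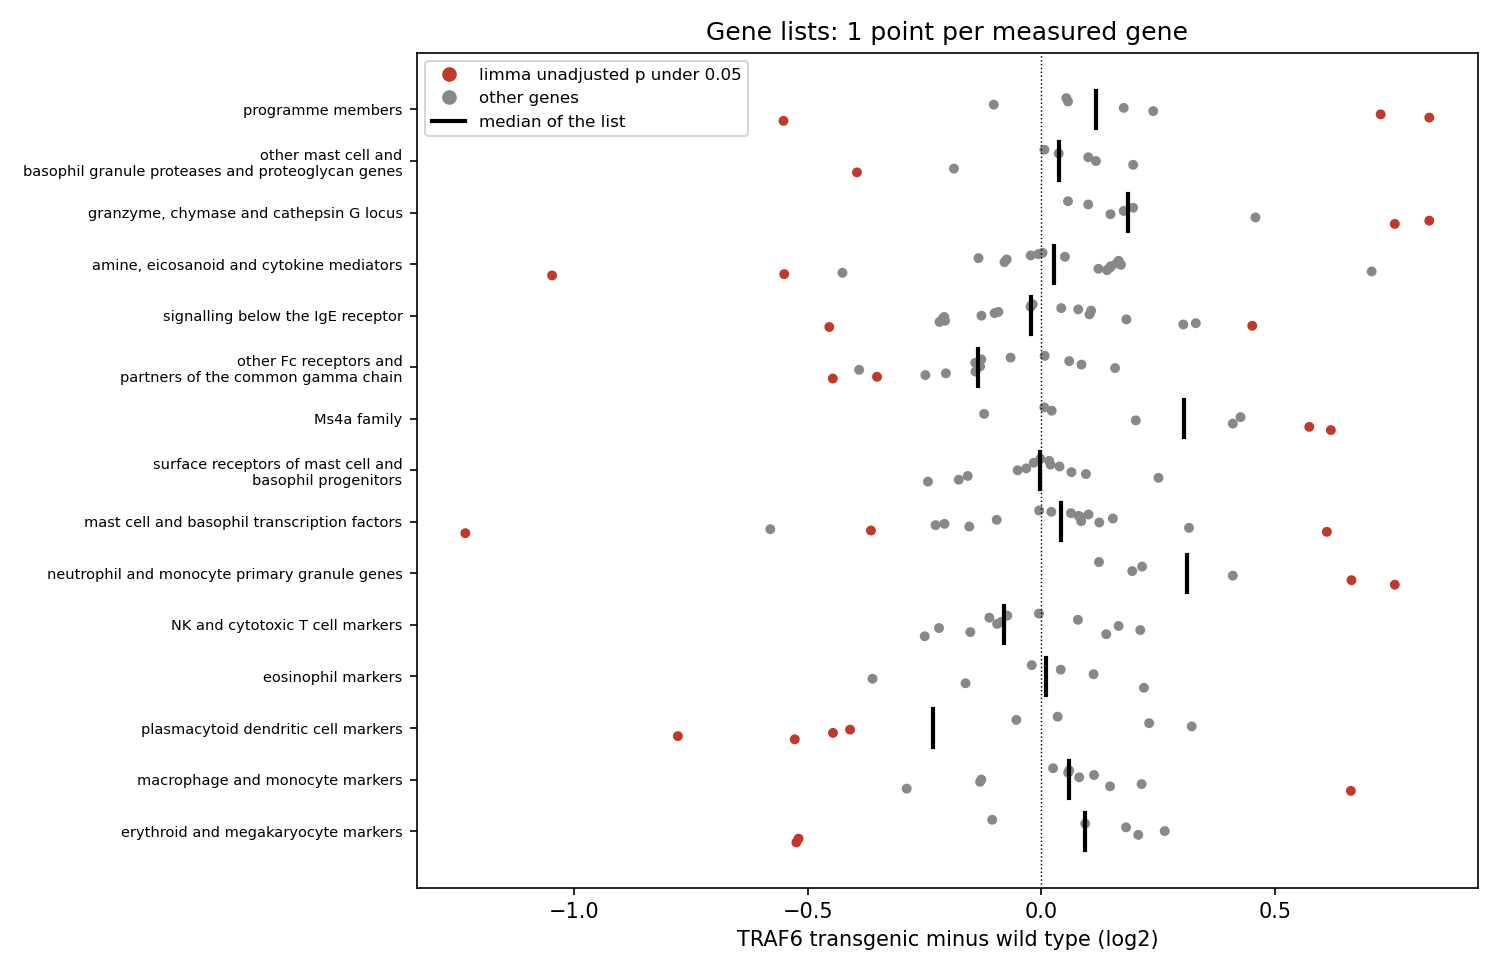
Difference in log2 signal, labelled transgenic minus wild type (horizontal axis), of every measured gene in each list (rows), in red where the unadjusted limma p was under 0.05, with the median of the list as a black bar. The programme members spread from -0.55 (Fcer1g) to 0.83 (Gzmb), and the median of the surface receptor list was -0.00211.

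Several of the 8 genes are shared with other cells, so markers of those cells are given beside them. For Gzmb, 0 of 12 measured NK and cytotoxic T cell genes were called at unadjusted p under 0.05 in limma, against 10.3% of all rows. Of the 12 genes, 4 were higher and 8 lower. Of the same 12, 8 lay below the 40th percentile of mean signal, where a signal may be background. The mean of the list ran from 5.27 to 5.37 on labelled transgenic arrays, against 5.31 to 5.35 on wild-type arrays. Neutrophil and monocyte primary granule genes differed in the same direction as Gzmb, with 6 of 6 measured genes higher, a median of 0.31 and an array mean of 8.87 to 9.19 in labelled transgenic cells, against 8.51 to 8.85 in wild type. Among them Prtn3, proteinase 3, differed by 0.66 (SE 0.12; limma adjusted p = 0.279). In limma 2 of the 6 were called at unadjusted p under 0.05, Prtn3 and Ctsg, against 5.22% of all rows higher. The groups overlapped for Ms4a3 (0.41), Ctsc (0.22), Mpo (0.19) and Elane (0.12). Ctsg is also in the protease cluster and Ms4a3 in the Ms4a list. For Fcer1g, 3 of 11 measured macrophage and monocyte genes were lower and 8 higher, with array means of 5.28 to 5.38 in labelled transgenic cells, against 5.20 to 5.33 in wild type. Of the 11, 7 lay below the 40th percentile of mean signal. At unadjusted p under 0.05 in limma 1 of the 11 was called, higher, against 5.22% of all rows. That gene was Ccr2, which differed by 0.66 with overlap (limma adjusted p = 0.415). Plasmacytoid dendritic cell genes differed in the same direction as Fcer1g, with 5 of 8 lower, 4 of them at unadjusted p under 0.05, and array means of 6.06 to 6.18 in labelled transgenic cells, against 6.19 to 6.43 in wild type. Cox6a2, Tlr7, Ly6d and Ccr9 of that list differed by -0.53, -0.78, -0.45 and -0.41, against 5.05% of all rows lower at this threshold, and none of the other 4 was called. Siglech, a defining marker of these cells, differed by -0.05, Irf7 by 0.32, Bst2 by 0.23 and Pacsin1 by 0.04. Tlr7, Ccr9, Siglech and Pacsin1, 4 of the 8, lay below the 40th percentile of mean signal. Of 7 measured erythroid and megakaryocyte genes, 4 were higher and 3 lower, with the platelet chemokine genes Pf4 and Ppbp at -0.52 each, Klf1 at 0.26, Epor at 0.21, Vwf at 0.18 and Gp9 at 0.09. Of 6 measured eosinophil genes, 3 were higher and 3 lower, with Ear6, Epx and Prg2 at 0.22, -0.16 and -0.36. In limma 0 of the 6 were called at unadjusted p under 0.05, against 10.3% of all rows, and 4 of the 6 lay below the 40th percentile. The part of any of these cells in the values of the 8 genes was not tested.

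The genes whose log2 signal over the 7 arrays was most like that of 6 of the programme genes (all but Fcer1g and Cma1) were sought among 9562 genes above the 40th percentile, by Pearson correlation. The values describe these 7 arrays only, whose median signals also differed, from 5.98 to 6.21. For Gzmb they were Dus1l, Snx19 and Psmb1 (r of 0.989, 0.988 and 0.985), for Fcer1a Pik3r5, Ces2g and Taf6l (0.955, 0.950 and 0.946) and for Ms4a2 Tomm7, Zbp1 and Olfr945 (0.981, 0.962 and 0.962). For Cpa3 they were Mdm4, Ssr4 and Pyy (0.990, 0.989 and 0.988), for Hdc Cdc16, Kat14 and Cul1 (0.995, 0.995 and 0.992) and for Mcpt8 Slfnl1, Taar6 and Il12b (0.937, 0.933 and 0.924).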

How the data were processed

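RNA of LSK cells from 7 mice was measured on mouse exon arrays, 1 per mouse. The authors deposited log2 signals from RMA, with mm9 as the mouse build, per the submitters' processing notes. The log2 scale was inferred from the values (1.28 to 14.03). Its settings are not given in the sources used here. Precision is limited by the number of arrays.

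Groups came from the titles. The table was fitted whole with limma 3.58.1 (moderated, two-sided, R 4.3.3), with genotype as the only term and Benjamini-Hochberg adjustment over 23332 rows. Of these, 14996 rows had 1 platform symbol, 1019 several and 7317 none. Where a gene had several rows (135 genes), the brightest on average was used. All 8 programme genes matched RefSeq by Entrez identifier, and 55 of 220 listed genes had no single-symbol row.

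The programme genes, the 17 lists and the motifs were chosen with earlier results of these data known. Besides the programme genes and label checks, the rule named up to 3 genes per list by smallest p and the 3 genes most like each of 6 programme genes. Others, such as Kit, Gata2, Mitf and neighbours in the protease cluster, were named after their values were seen. Lists are described by counts and medians, with no set test.

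Alternatives were a low-signal filter (mean above the 40th percentile), quantile normalization, median centring, weighting of arrays, a trended robust prior, ordinary least squares, 1 row per gene, averaging a gene's rows, a looser threshold of 0.1 and omission of each array. In simulated data of 23332 rows with independent normal noise, shifts of 1.5-fold, 2-fold, 4-fold and 8-fold were planted together. There limma called 10 of 50 rows shifted 1.5-fold and 26 of 50 rows shifted 2-fold. It called 47 of 50 rows shifted 4-fold and 45 of 50 rows shifted 8-fold. Large planted shifts ease the adjustment, and only 5 rows passed in the real data, so these rates may be too high for it. Plots were made in matplotlib 3.10.9.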

Additional observations from a re-analysis of the deposited data

Results flagged for a closer look

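Among the 53 genes named by rule and tested in this way, Epx, the eosinophil peroxidase gene, was the one with a wild-type array far from the other 3. Wild type 24 had a log2 signal of 6.57, against 5.86 to 5.97 on the other wild-type arrays, and this gap took 0.842 of the whole range, above Dixon's critical value for 4 samples. Chance gives about 1 in 20 groups such a gap. None of the 8 programme genes had one, and groups of 3 were not tested.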

How the results depend on the processing

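Over 15 other settings, none of the 8 genes reached an adjusted p under 0.05 in limma or unmoderated least squares, and the direction held in 113 of 117 combinations of gene and setting. Gzmb stayed at 0.63 to 1.01 and Fcer1g at -0.61 to -0.48, both with unadjusted p under 0.05 in each of the 15. Fcer1a kept it in 3 of 7 settings that left out an array and in 5 of 7 others, and Ms4a2, which had missed it, reached it in 1 of 7 and 6 of 7. On leaving out 1 array, Cpa3 ran from -0.16 to 0.0218, Hdc from -0.0463 to 0.20 and Mcpt8 from -0.0145 to 0.11. The difference of Cpa3 turned to 0.0218 and that of Mcpt8 to -0.0145 without labelled transgenic 05, and that of Hdc to -0.0463 without labelled transgenic 03 and -0.00193 without wild type 21. These 3 genes lie near 0. Leaving out 1 array gave 2 to 3 programme genes at unadjusted p under 0.05, a median difference of 0.0858 to 0.170, 2 to 4 rows past the adjusted threshold (2 without labelled transgenic 05 and 3 without wild type 21, 22 or 24, against 5) and 1618 to 3668 rows at unadjusted p under 0.05. The highest of these, 3668, came without labelled transgenic 05, and the lowest, 1618, without wild type 23, against 2397. Array weights, which reweight all 7 arrays, gave 4726. The cause was not tested. The low-signal filter left 5 of the 8 genes, without Fcer1a, Ms4a2 and Cma1. No paired analysis was possible because the groups share no replicate numbers.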
